A study of Arabidopsis thaliana with 20 samples.

Results

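The star strands of miR156 and miR157 were followed during the first day of de-etiolation in *Arabidopsis thaliana*. They were taken as every listed miRNA whose name begins with miR156 or miR157 and ends in -3p, and 7 of the 207 listed miRNAs met this rule. miR157a-3p and miR157b-3p have the same mature sequence, so the 7 entries hold 6 distinct sequences. The samples were wild-type Col-0 seedlings, a standard laboratory accession, kept in the dark for 4 d and then moved to white light at 100 μE. All groups shared this dark growth, and the RNA came from aerial tissue pooled from many seedlings. The dark control (W0 h) and 5 later times, at 1 h, 3 h, 6 h, 12 h and 24 h in the light, had 3 biological replicates each, or 18 small RNA libraries. A degradome library of dark seedlings and another of mixed light-treated seedlings, without replicates, completed the series.

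A plant miRNA is cut from a stem-loop precursor as a duplex. Usually one strand, the guide, is kept by an ARGONAUTE protein and the other, the star strand, is discarded, so the level of a star strand reflects both the duplexes made and the strands that escaped decay. The guides of miR156 and miR157 lie on the 5′ arm and direct the silencing of *SQUAMOSA PROMOTER BINDING PROTEIN-LIKE* (*SPL*) transcription factor mRNAs, and they are known for holding shoots in the juvenile phase. AGO1, the main miRNA slicer in *Arabidopsis*, is known to favour small RNAs that begin with uridine.

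The mature sequences are shown because they decide which entries can be told apart and how the strands group. They came from the list of miRNAs profiled in the study, and all 7 were matched to the MIR genes of the RefSeq annotation of TAIR10.1. The prefix ath- stands for *Arabidopsis thaliana* and is left out below. Capitals mark the seed, bases 2 to 8 from the 5′ end. The miR156 star strands were:
ath-miR156a-3p: gCUCACUGcucuuucugucaga
ath-miR156c-3p: gCUCACUGcucuaucugucaga
ath-miR156f-3p: gCUCACUCucuauccgucacc
ath-miR156b-3p: uGCUCACCucucuuucugucagu
The miR157 star strands were:
ath-miR157a-3p and ath-miR157b-3p: gCUCUCUAgccuucugucauc
ath-miR157c-3p: gCUCUCUAuacuucugucacc
The guides on the opposite arms were:
ath-miR156a-5p, ath-miR156b-5p, ath-miR156c-5p and ath-miR156f-5p: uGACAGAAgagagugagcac
ath-miR157a-5p, ath-miR157b-5p and ath-miR157c-5p: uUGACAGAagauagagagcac

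miR156a-3p lies at chr2:10676470-10676491 (minus strand, AT2G25095) and miR156b-3p at chr4:15075004-15075026 (plus strand, AT4G30972). miR156c-3p lies at chr4:15415426-15415447 (minus strand, AT4G31877) and miR156f-3p at chr5:9136197-9136217 (plus strand, AT5G26147). miR157a-3p lies at chr1:24913205-24913225 (minus strand, AT1G66783), and miR157b-3p at chr1:24921175-24921195 (plus strand, AT1G66795). miR157c-3p lies at chr3:6244527-6244547 (minus strand, AT3G18217). Each position is in the 3′ arm of an annotated non-coding MIR gene.

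The guides repeat between loci and the star strands mostly do not. The miR156 guide sequence was found at 6 places in the genome and the miR157 guide at 3, whereas each star sequence was found at 1 place, except the shared miR157a/b-3p sequence with 2. A star strand therefore names its locus in 5 of the 6 sequences. Counting positions from 1 at the 5′ end, miR156a-3p and miR156c-3p differed only by U13A, and miR157a-3p and miR157c-3p by G9U, C10A and U20C. The strands shared the seed CUCACUG in miR156a and miR156c and the seed CUCUCUA in the 3 miR157 entries. The seeds of miR156f-3p (CUCACUC) and miR156b-3p (GCUCACC) were each found once. Guanosine was the first base of 6 of the 7 entries, against 10.6% of all 207 listed miRNAs, and only miR156b-3p began with uridine, the first base of 60.4% of the list. That list includes these entries and mixes guides with star strands. Star strands of other families varied: miR166a-5p, miR167a-3p and miR396a-3p also began with guanosine, but miR168a-3p and miR390a-3p with cytidine. A first guanosine is therefore not particular to these families.

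The predicted duplexes were alike. Each star strand formed 17 to 19 base pairs with the guide of its own locus, with minimum free energies from −26.6 kcal/mol for miR156f to −29.6 kcal/mol for miR157c. The loop separating the arms was longest in miR157c, with 125 bases between the mature strands, against 39 to 51 bases in the other 6 loci.

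Values are in RPM, the reads of a strand relative to all mapped 20–24 nt reads of its library, scaled to 1000000. From the steps in the deposited values, the number of such reads was inferred to lie between 13426228 and 20445034 per library. Reads shared by members of a family were divided among them by the authors, so reads of the shared 5p sequences cannot be assigned to a locus. The miR157a-3p and miR157b-3p entries each hold a share of the same reads. Entries with the same sequence were not always equal: at W0 h in replicate 1, miR156a-5p was at 4566 RPM and miR156b-5p at 5500 RPM. The reason is not known here. Library kits differed: TruSeq was used for replicates 1 and 2, but Small RNA v1.5 for replicate 3. The levels of most miRNAs in replicate 3 stood apart from those of the other replicates: 38.6% of the 207 lay above all 12 libraries of replicates 1 and 2 in all 6 libraries of replicate 3, and 30.4% lay below. Kit and replicate cannot be told apart, so changes with light were tested within replicates.

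The order of the star strands in replicate 3 differed from that in replicates 1 and 2. In replicates 1 and 2, miR156f-3p was the most abundant, with 304 to 741 RPM. It made up 88.7% to 94.0% of the summed level of the 6 distinct star sequences (median 91.8% over 12 libraries). In replicate 3, miR156f-3p fell to 32.5 to 69.5 RPM and 6.76% to 15.4% of that sum. There miR157a-3p was the most abundant, with 335 to 838 RPM and 80.5% to 91.7% of the sum, against 4.95 to 18.3 RPM in replicates 1 and 2. These ranges did not overlap for either strand.

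Of the 7 entries, 4 thus lay wholly on one side. Over all 207 miRNAs 38.6% lay above and 30.4% below, so lying apart was not particular to the star strands. miR157a-3p and miR157b-3p were 55.9- and 55.7-fold higher in replicate 3, which placed them 13th and 15th of the 207 miRNAs for this ratio. miR156c-3p and miR156f-3p were 4.15- and 9.23-fold lower. miR156a-3p, miR156b-3p and miR157c-3p overlapped. The guides did not follow the same pattern: miR156a-5p was 21.9-fold and miR157c-5p 84.3-fold higher in replicate 3, while the star strands of miR156c, miR156f and miR157c had lower mean levels there.

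**Figure D1:**
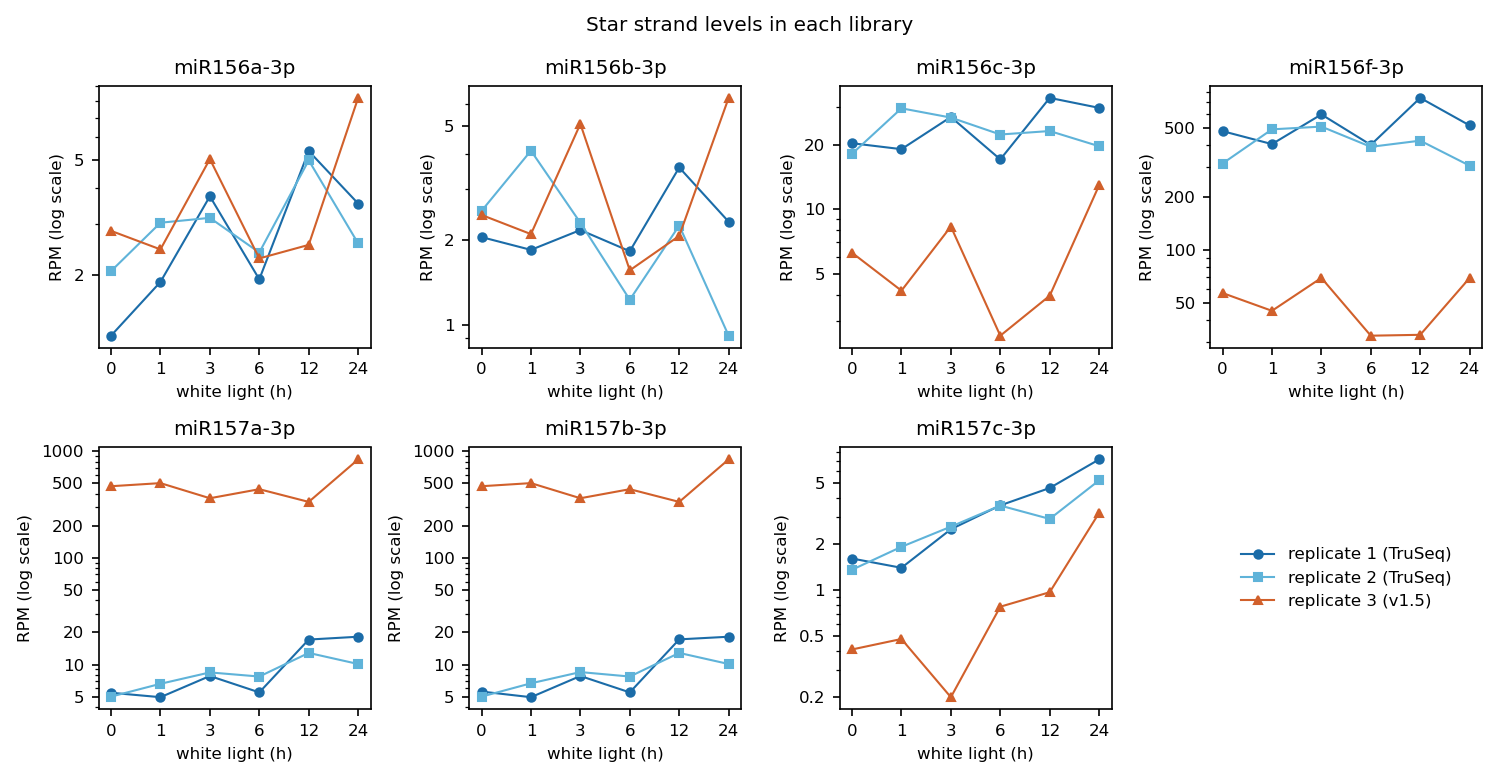
Levels of the 7 star strands in each library. The x axis gives hours of white light (0 is dark, steps not to scale) and the y axis RPM on a log scale, with 1 line per replicate. Replicate 3 lies above the others for miR157a-3p and miR157b-3p (335 to 838 RPM against 4.95 to 18.3 RPM) and below them for miR156c-3p and miR156f-3p, and miR157c-3p is highest at 24 h in every replicate.

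The first comparison, of levels, asked when star strand levels changed relative to the dark. No star strand passed at 1, 3 or 6 h, where 0.483% of the 207 listed miRNAs passed at each time (1 miRNA, higher). At 12 h 1 of the 7 had risen and none had fallen, while 1.45% of all listed miRNAs rose and 12.6% fell. At 24 h 4 of the 7 had risen and none had fallen, against 6.28% higher and 29% lower over the list. The calls come from limma with the replicate as a term and Benjamini-Hochberg adjustment over all 207 miRNAs (threshold 0.05). Without the replicate term none of the 7 passed at either time. The median change of the 7 star strands was 0.82 on the log2 scale at 12 h and 1.08 at 24 h, whereas that of all listed miRNAs was −0.34 and −0.40. With the shared miR157a/b-3p sequence taken once, 3 of 6 sequences had risen at 24 h, and the median was 0.48 at 12 h and 0.82 at 24 h. All changes are on the scale of log2(RPM + 0.1), which understates changes of low values.

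miR157c-3p (ath-miR157c-3p in the list) rose most. It was at 1.61, 1.36 and 0.41 RPM in replicates 1, 2 and 3 at W0 h, and at 7.15, 5.22 and 3.20 RPM at 24 h. Every library at 24 h was above every library at W0 h. The rise was 4.64-fold (log2 change 2.21, SE 0.35, limma adjusted p = 0.00021, higher in 3 of 3 replicates), the second largest of the 207 miRNAs at 24 h, and it passed without any single replicate.

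The rise of miR157c-3p was already seen earlier. At 6 h its levels were 3.58, 3.57 and 0.78 RPM, higher than at W0 h in all 3 replicates (log2 change 1.07, SE 0.35), but the change did not pass (limma unadjusted p = 0.0060, adjusted p = 0.30). At 12 h the levels were 4.65, 2.92 and 0.97 RPM, and the change of 1.20 (SE 0.35, limma adjusted p = 0.032) was the second largest of the list. The 12 h call was lost without replicate 1 (adjusted p = 0.36) or without replicate 2 (adjusted p = 0.27). Replicate 3 rested on few reads: about 7 at W0 h (95% Poisson interval 0.163 to 0.838 RPM) and about 57 at 24 h (2.42 to 4.14 RPM). These intervals cover counting error only, and they did not overlap.

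miR157a-3p, the star strand of the miR157a locus, was at 5.45, 5.01 and 470 RPM in replicates 1, 2 and 3 at W0 h and at 18.25, 10.13 and 838 RPM at 24 h. Within each replicate the level at 24 h was the higher one, while the groups overlapped because of the high values of replicate 3. The rise was 2.28-fold (log2 change 1.19, SE 0.36, limma adjusted p = 0.014). miR157b-3p, with the same sequence, gave 1.18 (adjusted p = 0.015) and is no separate evidence. At 12 h the replicates did not share a direction: miR157a-3p was at 17.2 and 12.9 RPM in replicates 1 and 2, above the dark, and at 335 RPM in replicate 3, below the dark (limma adjusted p = 0.12). Without replicate 3 the 12 h change passed (1.49, adjusted p = 0.0011). The 24 h call was lost without replicate 1 (adjusted p = 0.22) or without replicate 2 (adjusted p = 0.099).

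Among the miR156 star strands only miR156a-3p passed. Its levels were 1.24, 2.07 and 2.85 RPM at W0 h and 3.54, 2.58 and 8.19 RPM at 24 h. Each replicate was higher at 24 h, by little in replicate 2, and the groups overlapped. The rise was 2.11-fold (log2 change 1.08, SE 0.37, limma adjusted p = 0.029). It was lost without replicate 1 (adjusted p = 0.29) or without replicate 2 (adjusted p = 0.053). The libraries held about 19 to 146 reads of this strand.

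The 2 better measured miR156 star strands did not pass at any time. miR156f-3p, the leading star strand of replicates 1 and 2, was at 479, 313 and 56.9 RPM at W0 h and 516, 304 and 69.4 RPM at 24 h, and each replicate stayed near its dark level. Its log2 change was 0.12 (SE 0.30, limma adjusted p = 0.82). miR156c-3p was at 20.4, 18.2 and 6.27 RPM at W0 h and at 29.8, 19.7 and 12.96 RPM at 24 h, higher in 3 of 3 replicates, with a change of 0.57 (SE 0.37, limma adjusted p = 0.24). miR156b-3p, the only strand that begins with uridine, gave no common direction: it went from 2.04, 2.52 and 2.44 RPM to 2.31, 0.92 and 6.28 RPM (log2 change 0.05, SE 0.46, limma adjusted p = 0.94). That a miR157 star strand passed and a miR156 star strand did not does not show that they differ, and this difference was not tested.

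At 2 of the 5 steps between successive times, the 4 miR156 star strands moved alike. All 4 were lower at 6 h than at 3 h in all 3 replicates, as were 19.3% of the 207 miRNAs. All 4 were then higher at 12 h than at 6 h in all 3 replicates, as were 12.1% of the list, at a step where 38.2% of the list was lower in all 3. In replicate 3 the 95% Poisson intervals at 6 and 12 h overlapped for all 4 at this second step. Such an overlap does not by itself place a difference within counting error. There miR156f-3p went from 32.47 to 32.85 RPM and miR156a-3p from 2.29 to 2.55 RPM. In replicate 2 miR156c-3p went only from 22.35 to 23.2 RPM. The level of miR156f-3p at 6 h was 0.670, 0.766 and 0.468 of that at 3 h in replicates 1, 2 and 3, and that of miR156c-3p was 0.634, 0.834 and 0.309. For the miR156 star strands at this first step, the 95% Poisson intervals overlapped for miR156b-3p in replicate 1 (about 31 and 30 reads). They also overlapped for miR156a-3p, miR156b-3p and miR156c-3p in replicate 2, but not elsewhere. miR157c-3p was higher at the first of these steps, with ratios of 1.43, 1.37 and 3.90. Its reads were few, about 4 and 14 at 3 and 6 h in replicate 3. Its 95% Poisson intervals at 3 and 6 h overlapped in all 3 replicates. At the other 3 steps they did not move alike: none was higher or lower in all 3 replicates from W0 h to 1 h or from 12 to 24 h, and from 1 to 3 h only miR156a-3p and miR156f-3p were higher in all 3. This pattern was noticed in the values and is given as a description, without a test.

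Over the 18 libraries, after each replicate's mean was removed, Pearson's r of the log2 levels was 0.90 for miR156c-3p with miR156f-3p and 0.80 for miR156a-3p with miR156c-3p. For miR157c-3p with miR156f-3p it was 0.06. These values share libraries and their depth, and they are descriptions. Among the 170 other miRNAs with a mean of at least 1 RPM, the most similar to miR157c-3p were its own guide miR157c-5p (r = 0.76), miR163 (r = 0.73) and miR157a-5p (r = 0.73). For miR157a-3p they were miR164b-5p (r = 0.68), miR171a-3p (r = 0.63) and miR5642a (r = 0.63), and the same 3 led for miR157b-3p. No miR156 guide was among the 3 nearest of any miR156 star strand. These were miR167a-3p (r = 0.64), miR773a (r = 0.57) and miR5026 (r = 0.57) for miR156a-3p, miR169b-3p (r = 0.55), miR167c-5p (r = 0.51) and miR773a (r = 0.49) for miR156b-3p, miR773a (r = 0.58), miR167a-3p (r = 0.57) and miR390a-3p (r = 0.45) for miR156c-3p, and miR773a (r = 0.52), miR5026 (r = 0.46) and miR167b (r = 0.45) for miR156f-3p.

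The second comparison set each star strand against the guide of its locus. The guides of miR156 and miR157 went opposite ways in the light. At 24 h the miR156 guides had fallen: the miR156a-5p entry went from 4566, 4220 and 76467 RPM to 1936, 1816 and 66788 RPM in replicates 1, 2 and 3, lower in every replicate. Its log2 change was −0.88 (SE 0.20, limma adjusted p = 0.0020), and those of miR156b-5p, miR156c-5p and miR156f-5p lay between −0.88 and −0.86. By replicate, miR156a-5p changed by −1.24, −1.22 and −0.20. The median change of all listed miRNAs was −0.71, −0.49 and 0.04 in the same replicates. How far the fall of the guides follows this shift of the list was not tested. The miR157 guides had risen, by 1.24 for miR157a-5p and miR157b-5p (SE 0.24, limma adjusted p = 0.00060) and by 1.21 for miR157c-5p (SE 0.23, limma adjusted p = 0.00054). No miR156 star strand passed as lower while its guide fell, and each miR157 star strand rose at 24 h along with its guide.

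**Figure D2:**
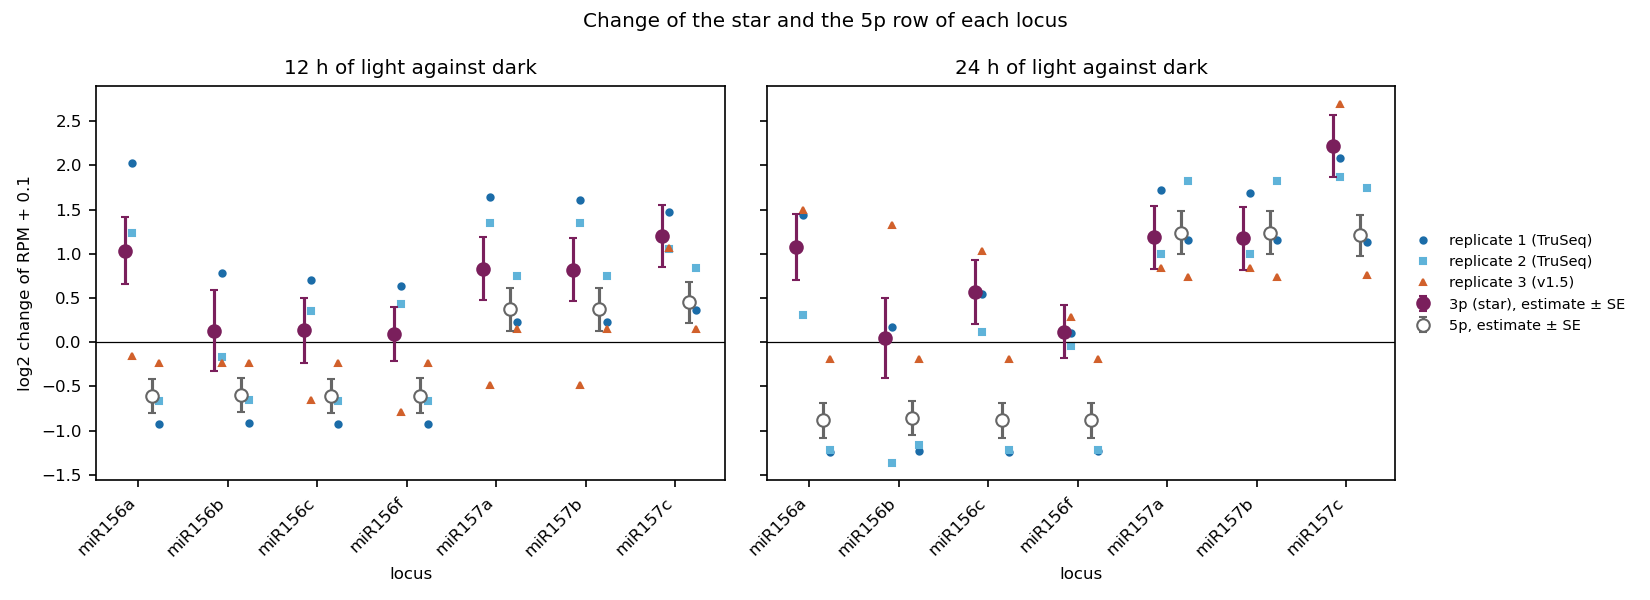
Change of each star strand (filled) and of the 5p entry of its locus (open) at 12 and 24 h of light against the dark. The y axis is the log2 change of RPM + 0.1, large points with bars are limma estimates ± SE, and small points are the 3 replicates. At 24 h the miR156 guides lie near −0.88 with their star strands at 0.05 to 1.08, and the miR157a and miR157b pairs lie together near 1.2.

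The ratio of the 3p to the 5p entry was tested over the 41 loci that list both strands. The arm of the guide differs between these loci: at miR166a, miR398b and miR408, for example, the 5p entry is the star strand. There a higher ratio means more guide relative to star. The shares over the 41 loci, higher or lower, therefore mix both meanings. None of the 7 loci passed at 1 or 3 h (0% of all 41 loci) or at 6 h, where 12.2% of all loci passed. At 12 h 1 of the 7 was higher, against 14.6% of the 41 loci, and at 24 h 3 of the 7 were higher, against 29.3%. None was lower at these times, against 7.32% and 19.5%. The 3 that passed at 24 h were all miR156 loci. Their guides have the same sequence, and each 5p entry changed by −0.88, so the 3 ratios share a denominator and are not independent. In miR156f the star strand itself changed by 0.12. miR157a and miR157b, with the same sequences on both arms, also count separately among the 7.

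In miR156a the star strand was 0.0272%, 0.0491% and 0.00373% of the 5p entry in replicates 1, 2 and 3 at W0 h, and 0.183%, 0.142% and 0.0123% at 24 h. The percent was higher in each replicate at 24 h. The 3p to 5p ratio rose 3.90-fold (log2 change 1.96, SE 0.44, limma adjusted p = 0.0014), the largest rise of this ratio among the 41 loci. It was also the ratio that had passed at 12 h (1.64, limma adjusted p = 0.013). At miR398b and miR398c, where the 5p entry is the star strand, the 3p to 5p ratio changed by −2.18 each at 24 h. The star strand gained more on its guide there than in miR156a.

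In miR156c the star strand went from 0.446%, 0.430% and 0.00820% of the 5p entry to 1.54%, 1.08% and 0.0194%, a rise of 2.73-fold (log2 change 1.45, SE 0.40, limma adjusted p = 0.0071). In miR156f it went from 10.5%, 7.42% and 0.0744% to 26.7%, 16.7% and 0.104%, a rise of 2.00-fold (log2 change 1.00, SE 0.36, limma adjusted p = 0.031). Both ratios were higher at 24 h in 3 of 3 replicates. In miR156b the change was 0.91 (SE 0.49), higher in 2 of 3 replicates, and did not pass (limma adjusted p = 0.13).

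Without replicate 1 none of the 3 ratio calls at 24 h held (adjusted p = 0.063 for miR156a, 0.10 for miR156c and 0.20 for miR156f), though all stayed higher by 0.83 to 1.60. The call of miR156f was also lost without replicate 2 (adjusted p = 0.17). The 12 h call of miR156a was lost without replicate 1 (adjusted p = 0.50) or without replicate 2 (adjusted p = 0.23).

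The miR157 ratios did not pass at any time. At 24 h the ratio of miR157a changed by −0.05 (SE 0.43, limma adjusted p = 0.91) with no common direction in the replicates, and that of miR157b by −0.06. The SE is wide, so a change of moderate size was not detectable with these libraries. The ratio of miR157c was higher by 1.01 (SE 0.45, limma adjusted p = 0.075) in 3 of 3 replicates. Its star strand went from 1.32%, 1.41% and 0.00352% of the 5p entry to 2.68%, 1.61% and 0.0163%, so most of the change was in replicates 1 and 3.

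**Figure D3:**
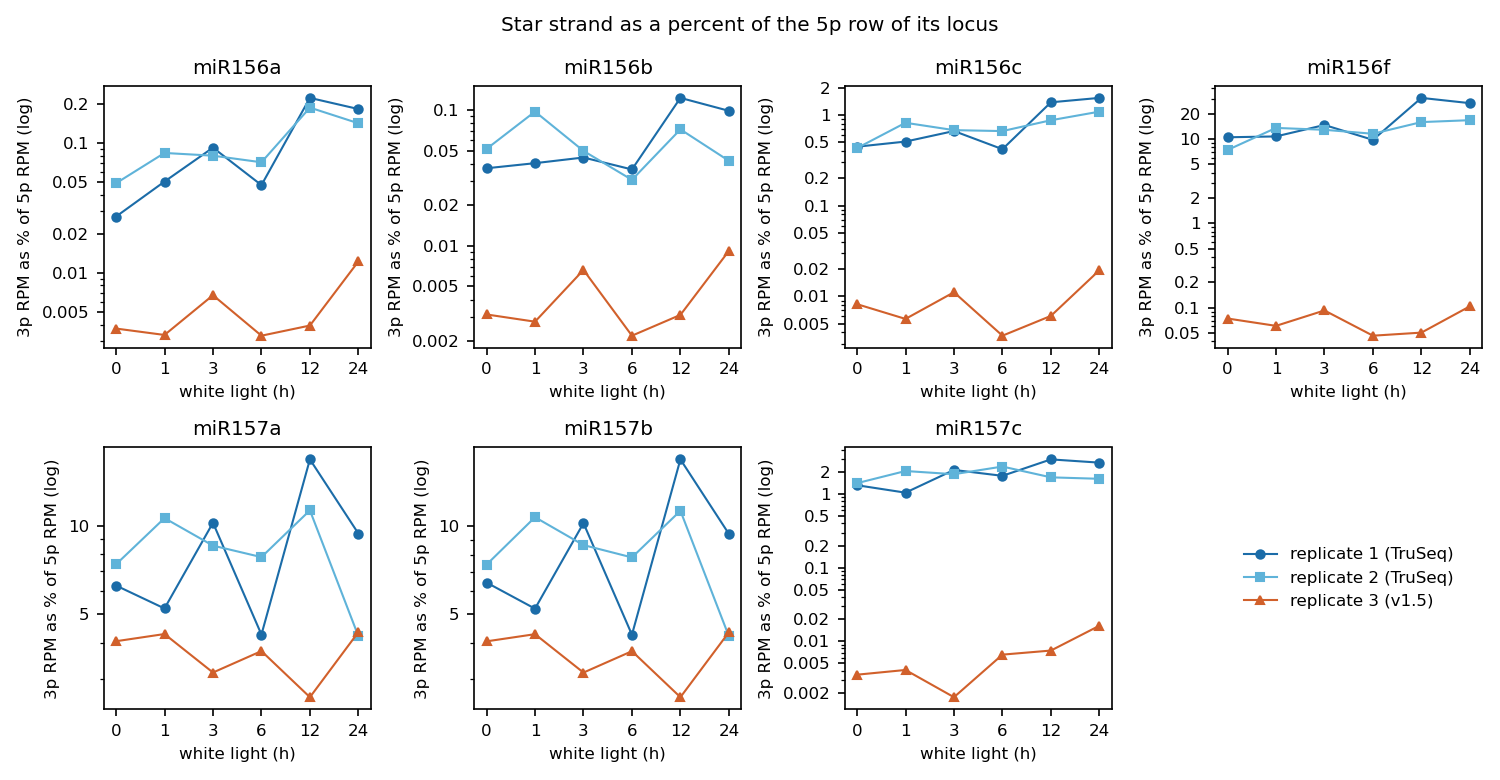
Star strand as a percent of the 5p entry of its locus in each library. The x axis gives hours of white light (steps not to scale) and the y axis the percent on a log scale, with 1 line per replicate. Replicates 1 and 2 rise for miR156a, miR156c and miR156f by 24 h. Replicate 3 lies below them at every locus, except at 24 h for miR157a and miR157b, where it meets replicate 2 (4.35% against 4.21%).

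The percent itself also differed between replicate 3 and the other replicates. For miR156f it ranged from 7.42% to 30.8% in replicates 1 and 2 and from 0.0466% to 0.104% in replicate 3, and for miR157c from 1.05% to 2.96% against 0.00174% to 0.0163%. For miR157a the ranges met, at 4.21% to 16.8% against 2.61% to 4.35%. In no library did a star strand exceed 30.8% of the 5p entry of its locus. Since the 5p entries hold divided family reads, this percent does not give the balance of the strands at 1 locus.

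The other listed strands of these families and the star strands of other conserved families were set beside the 7. Of the 14 other miR156 and miR157 entries, 3 rose and 8 fell at 24 h (median log2 change −0.86). The 3 that rose have the same mature sequence, and most of the 8 that fell share the miR156 guide sequence. miR157a-5p and miR157b-5p had the highest change, and miR156j the lowest (−1.05, SE 0.33, limma adjusted p = 0.019). Of the 28 star strands of other conserved families, 1 rose and 11 fell (median −0.49). These also hold repeated sequences, such as miR166a-5p and miR166b-5p, so both lists count entries and not distinct sequences. The highest was miR167a-3p (0.86, SE 0.31, limma adjusted p = 0.035) and the lowest miR396a-3p (−2.04, SE 0.30, limma adjusted p = 9.3e-05). None of the 28 changed by more than miR157c-3p, miR157a-3p or miR156a-3p in the upward direction.

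**Figure D4:**
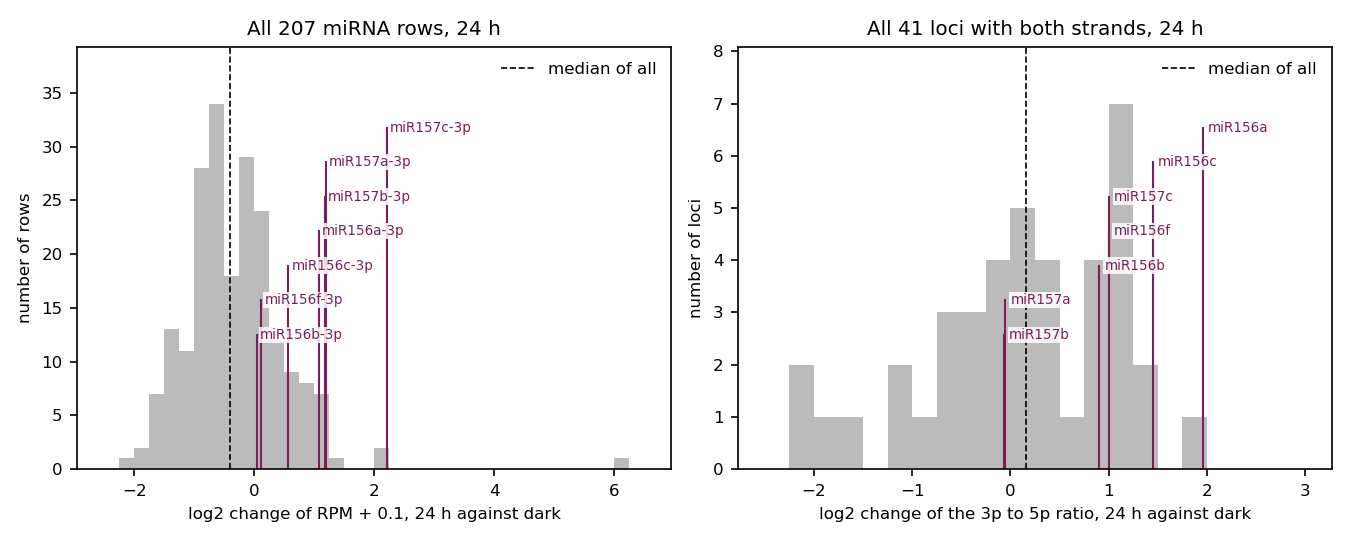
Changes at 24 h of light against the dark for the star strands (vertical lines, labelled) among all 207 listed miRNAs on the left, and for the 3p to 5p ratio of their loci among all 41 loci with both strands on the right. The x axes are log2 changes, the y axes count miRNAs or loci, and line heights carry no value. All 7 star strands lie above the median of the list (−0.40), while the ratios of miR157a and miR157b lie below the median of the loci (0.16).

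The degradome was searched for cleavage records made with a star strand as the query. The CleaveLand records of the dark library numbered 280 and those of the light library 416. In none did the query share at least 16 nt with a star strand, and the longest shared run was 8 nt. By the same measure, 12 dark and 19 light records had a query that shared at least 16 nt with a miR156 or miR157 guide. None of the records had a query named as a miRNA, and whether star strands were among the queries is not known here. The records also list only sites that passed a p-value limit of 0.05 and were in category 2 or better. The search therefore does not show whether star strands guided cleavage.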

How the data were processed

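Small RNAs of 17–30 nt were sequenced from 18 libraries. The authors mapped reads to TAIR10 with Bowtie 1.0.0, counted perfect matches to mature miRNAs, divided reads among family members, normalized to mapped 20–24 nt reads and deposited RPM, for miRNAs with at least 5 reads at 1 time point in all replicates. For the degradome, text records of CleaveLand were deposited by the authors, with raw read numbers along each transcript (unit other) and the p-value of every site, which was taken as given. All columns of the tables were used.

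Whole reads were recovered for only 56.0% to 68.6% of miRNA values per library (tolerance 0.006 RPM), so no count model was run. Log2(RPM + 0.1) was fitted with limma 3.58.1 (trend) in R 4.3.3, with time and replicate as terms, and tested on simulated data. With the replicate as a term, p-values measure how far changes over time differed between these replicates, not how far their levels differed. The spread was moderated over all miRNAs or loci. Same-numbered libraries deviated together (median r over 15 pairs 0.942, 0.944 and 0.979 for replicates 1, 2 and 3). These values include the offset of replicate 3 from the others, so they do not by themselves show pairing. Kit and replicate 3 cannot be told apart here, and within replicates 1 and 2 the median r was 0.26 (lowest −0.02, 30 pairs). Deviations from the mean of 2 replicates mirror each other, so each r of replicate 1 recurs in replicate 2 among the 30 pairs. Duplexes were folded with ViennaRNA 2.7.2. Plots used matplotlib 3.10.9.

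All star strands, their 5p entries, the 3 nearest miRNAs of each by Pearson's r, and the highest and lowest of 2 comparison lists were named. The members and lists were chosen with earlier results of these data known. Alternatives were pseudocounts of 1 and 0.01 RPM, no replicate block, no trend, minimum means of 1 and 10 RPM, rescaling to a median ratio of 0, each sequence once, the summed family 5p level, at least 14 shared nt, and each replicate left out.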

Additional observations from a re-analysis of the deposited data

How the results depend on the processing

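The counts of star strands called at 1 and 3 h stayed at 0 under every alternative run, and each change at 24 h that had passed stayed positive. Without the replicate block, 0 of the 7 star strands passed at 12 h and 0 at 24 h (9 of all 207 miRNAs at 24 h), and 0 ratios passed at either time. The changes themselves are the same in both fits. With a minimum mean of 10 RPM, which left 4 of the 7 strands, 0 passed at 12 h and 2 at 24 h, and 0 ratios at 12 h. Rescaling each library to a median ratio of 0 gave 2 calls at 12 h.

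With each replicate left out in turn, the count of star strands ranged from 0 to 1 at 6 h, 0 to 4 at 12 h and 1 to 4 at 24 h, and that of ratios from 0 to 3 at 12 h and 0 to 3 at 24 h. The counts without replicate 1 were 0 at 12 h and 1 at 24 h for levels, and 0 for ratios at both times. Those without replicate 2 were 0 at 12 h and 1 at 24 h for levels, and those without replicate 3 were 4 at both times. Changes that had not passed turned direction in 10 cases, the cause of which was not tested. When replicates were left out, the change at 12 h ranged from −0.20 (without replicate 1) to 0.31 for miR156b-3p, from −0.15 (without replicate 1) to 0.53 for miR156c-3p and from −0.18 (without replicate 1; −0.08 without replicate 2) to 0.53 for miR156f-3p. At 24 h that of miR156b-3p ranged from −0.59 (without replicate 3; −0.016 without replicate 1) to 0.75. The 12 h ratio change ranged from −0.019 (without replicate 1) to 1.00 for miR157a and from −0.019 to 0.99 for miR157b, and at 24 h from −0.36 to 0.34 (without replicate 2) and from −0.36 to 0.32 (without replicate 2). Of the other single values, 240 kept their direction and their side of the threshold, 23 lost the call and 7 gained one. The comparison of replicate 3 with the others without replicate 1 or 2, and with each sequence once (3 strands apart in place of 4), was added after seeing the data.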
